A study of Mus musculus with 4 samples.

Results

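The genes described here encode a cytosolic DNA sensor, signalling proteins of DNA and RNA sensing, and enzymes that cleave nucleic acids or dNTPs. They are the listed symbols Trex1, Samhd1, Rnaseh2a, Rnaseh2b, Rnaseh2c, Tbk1, Irf3 and Mavs, with the cGAS gene (Mb21d1 in the files) and the STING gene (Tmem173), found by symbol and joined by Ensembl identifier to the count table. All 10 were found among the 54232 genes of the table, and 9 of them passed the filter on low counts. RNA came from RPP631, a line of small cell lung cancer (SCLC) from the mouse, after 48 h in the vehicle DMSO (2 libraries) or in 100 nM YKL (2 libraries), an inhibitor of CDK7 according to the series title. CDK7 phosphorylates RNA polymerase II within TFIIH and also activates the cell cycle kinases. The labels give no genotype for the line, which all 4 libraries share, and do not say whether replicates were separate cultures. The p-values therefore measure the spread between these samples, which may be technical.

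In the cytosol, cGAS binds double-stranded DNA and makes the cyclic dinucleotide cGAMP, which activates STING on the endoplasmic reticulum. STING recruits the kinase TBK1, TBK1 phosphorylates the transcription factor IRF3, and IRF3 turns on type I interferon and chemokine genes. MAVS is the mitochondrial adaptor through which RNA sensors reach the same kinase. TREX1 (an exonuclease), SAMHD1 (which cleaves dNTPs and limits DNA released at stalled forks) and the RNase H2 complex (which removes RNA from DNA) keep self DNA from reaching cGAS, and their loss in humans causes an interferon disease, Aicardi-Goutières syndrome. In tumour cells, DNA in micronuclei is a known source of cGAS ligand, and many SCLC lines have low STING.

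Libraries held between 29817387 and 34189709 counts assigned to genes. The DMSO libraries differed from each other more than the YKL libraries did, with chi-square per degree of freedom of 86.6 and 37.1. Of 11 neuroendocrine markers, which define this tumour type, all had counts in the libraries, and their summed level ran from 5223 to 5927 CPM in DMSO and from 4568 to 4769 CPM in YKL. The leukocyte markers Cd3e and Nkg7 had no count in any library, and the summed level of the leukocyte list was 3.83 and 6.16 CPM in DMSO and 9.86 and 6.27 CPM in YKL. Within that list Ptprc was called higher in YKL by edgeR's quasi-likelihood test (adjusted p = 0.0392), with 0 and 2 counts in DMSO against 25 and 23 in the YKL libraries. The 10 markers of fibroblasts and endothelium summed to 14.1 and 28.5 CPM under DMSO and to 47.4 and 20.4 CPM under YKL, most of it from Pdgfra (11.5 and 23.1 CPM, then 43.1 and 17.6 CPM). Of these 10 markers 4 were not tested, and none of the others was called (edgeR). The part of other cells in the values below was not tested, and in bulk RNA fewer cells of a type and less RNA per cell cannot be told apart.

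With all libraries, none of the 9 tested genes was called by edgeR's quasi-likelihood test at a Benjamini-Hochberg adjusted p under 0.05, where 3.54% of all 16749 tested genes were. The estimated level in YKL was 1.72-fold higher for cGAS, 1.68-fold higher for both Samhd1 and STING, and 1.65-fold lower for Rnaseh2b. Of these, cGAS, Samhd1 and Rnaseh2b were the 3 genes with an unadjusted p under 0.05, a value reached by 21.2% of all tested genes. The signalling genes downstream of STING, Tbk1 and Irf3, differed little on average. The groups did not overlap in 5 of the 9 genes, 4 higher and 1 lower in YKL. Over all tested genes, 52.3% were separated in this way, 27% with YKL above and 25.3% with YKL below. The 9 genes had a median log2 fold change of 0.11, beside -0.00014 over all tested genes. Levels are CPM, counts relative to the library size after TMM scaling, which holds the bulk of genes near no change, so a shift shared by most transcripts would not show.

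**Figure D1:**
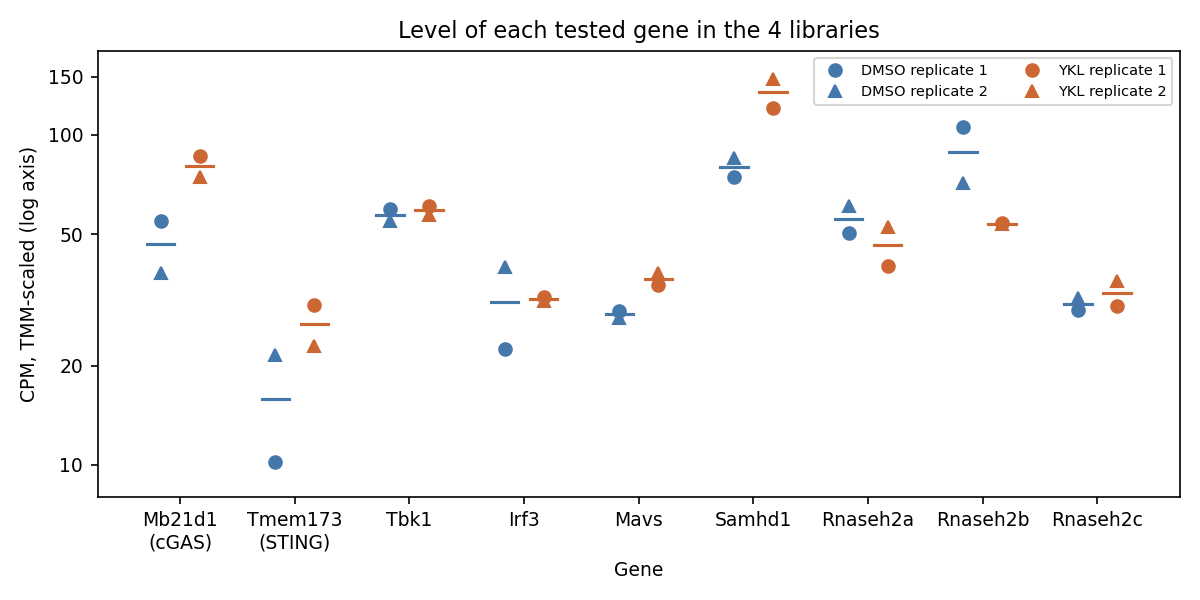
Level of each of the 9 tested genes in TMM-scaled CPM on a log axis, with circles for replicate 1, triangles for replicate 2, blue for DMSO, orange for YKL and a line at each group mean. The YKL points lie above both DMSO points for Mb21d1, Tmem173, Mavs and Samhd1 and below them for Rnaseh2b, and the DMSO points of Tmem173 and Irf3 lie far apart.

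The DNA sensor cGAS (Mb21d1, ENSMUSG00000032344, chromosome 9, 78430526 to 78443237, mm10) had 55.0 and 38.2 CPM in DMSO replicates 1 and 2 and 86.3 and 74.5 CPM in YKL replicates 1 and 2. Both YKL libraries were above both DMSO libraries, while the DMSO libraries stood further apart than the YKL libraries. The log2 fold change was 0.79 ± 0.22 (standard error), with a 95% interval from 0.29 to 1.28, unadjusted for the number of genes. It was not called (edgeR, adjusted p = 0.0834). Without DMSO replicate 1 the log2 fold change was 1.08, and without DMSO replicate 2 it was 0.51. A fit without a DMSO library holds no spread within DMSO, so only its fold change is given here and for the genes below.

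STING (Tmem173, ENSMUSG00000024349, chromosome 18), the receptor of cGAMP, had 10.2 and 21.5 CPM in DMSO replicates 1 and 2 and 30.5 and 22.8 CPM in YKL replicates 1 and 2. DMSO replicate 2 lay just below YKL replicate 2, and DMSO replicate 1 lay well below the other libraries. The gap within the DMSO pair, 2.10-fold, was thus larger than the 1.68-fold difference between the groups. The log2 fold change of 0.75 ± 0.36 was not called (edgeR, adjusted p = 0.282), and its 95% interval ran from -0.08 to 1.58. Without DMSO replicate 2 the log2 fold change was 1.35, whereas without DMSO replicate 1 it was 0.31. The ratio of STING to cGAS reads per kilobase was 0.332 and 1.01 under DMSO and 0.634 and 0.55 under YKL, so the YKL values fell between those of the DMSO libraries.

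Tbk1, the kinase shared by the DNA and RNA sensing routes (ENSMUSG00000020115, chromosome 10, 121546455 to 121586787), had 59.8 and 54.9 CPM in DMSO and 61.1 and 57.3 CPM in YKL. The groups overlapped and all 4 libraries were close. Its log2 fold change was 0.05 ± 0.18 (95% interval from -0.36 to 0.45), which leaves room for a modest change in either direction. Irf3, the transcription factor that TBK1 activates (ENSMUSG00000003184, chromosome 7, 44997648 to 45002848), had 22.4 and 39.9 CPM in DMSO replicates 1 and 2 and 32.2 and 31.4 CPM in YKL. Both YKL libraries lay between the DMSO libraries, and the log2 fold change was 0.03 ± 0.28 (95% interval from -0.59 to 0.66). The direction for Irf3 turned with the DMSO library used, at -0.32 without DMSO replicate 1 and 0.47 without DMSO replicate 2.

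Bcl2l12, a gene on the other strand whose exons share 88 bases with those of Irf3, was arranged like Irf3 across the libraries. It had 4.51 and 9.61 CPM in DMSO and 6.89 and 7.20 CPM in YKL. As for Irf3, DMSO replicate 1 was the lowest library and DMSO replicate 2 the highest, with both YKL libraries between them.

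Mavs, the mitochondrial adaptor of RNA sensing (ENSMUSG00000037523, chromosome 2, 131234063 to 131248025), had 29.3 and 27.9 CPM in DMSO and 35.0 and 38.1 CPM in YKL. The groups did not overlap and both pairs were tight, but the difference was small, with a log2 fold change of 0.35 ± 0.20 (edgeR, adjusted p = 0.354).

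**Figure D2:**
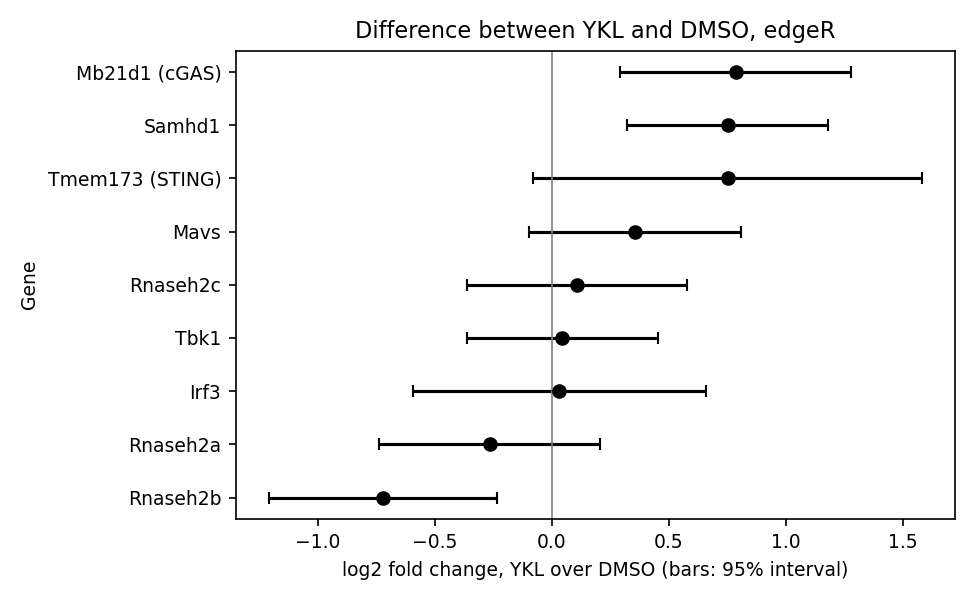
log2 fold change of YKL over DMSO for the 9 tested genes (points) with 95% intervals (bars) from the edgeR fit. The intervals of Mb21d1, Samhd1 and Rnaseh2b leave out 0 before adjustment for the number of genes tested, and those of the other 6 genes include it.

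Among the nuclease and dNTP enzyme genes, Samhd1 (ENSMUSG00000027639, chromosome 2, 157097533 to 157135265) encodes the dNTP triphosphohydrolase. Samhd1 had 74.6 and 85.0 CPM in DMSO and 121 and 148 CPM in YKL. Both YKL libraries exceeded both DMSO libraries by more than the gap within either pair. The log2 fold change was 0.75 ± 0.19 (95% interval from 0.32 to 1.18), the smallest p of the 9 genes, and it missed the threshold (edgeR, adjusted p = 0.0635). Samhd1 shares no exonic base with another gene of the table, so its counts carry no overlap. Leaving out single libraries kept its log2 fold change between 0.60 and 0.90. Rrm2, the ribonucleotide reductase subunit that makes the dNTPs SAMHD1 cleaves, had 599 and 384 CPM in DMSO and 757 and 703 CPM in YKL. Its log2 fold change of 0.57 ± 0.23 was not called (edgeR, adjusted p = 0.2). The value was 0.93 without DMSO replicate 1 and 0.25 without DMSO replicate 2, so its size rested on the DMSO library used.

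The RNase H2 complex has a catalytic subunit, encoded by Rnaseh2a, and auxiliary subunits encoded by Rnaseh2b and Rnaseh2c. Rnaseh2b (ENSMUSG00000021932, chromosome 14, 62292589 to 62372992) had 106 and 71.7 CPM in DMSO replicates 1 and 2 and 54.0 and 53.7 CPM in YKL. The YKL libraries were nearly equal and below both DMSO libraries, which lay far apart. The log2 fold change was -0.72 ± 0.22 (95% interval from -1.21 to -0.23) and was not called (edgeR, adjusted p = 0.1). Its size rested on the DMSO library used, at -1.01 without DMSO replicate 2 and -0.41 without DMSO replicate 1.

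Rnaseh2a (ENSMUSG00000052926, chromosome 8, 84956610 to 84969767) had 50.5 and 60.8 CPM in DMSO and 39.9 and 52.6 CPM in YKL, with overlapping groups and a log2 fold change of -0.27 ± 0.21 (edgeR, adjusted p = 0.52). Rnaseh2c (ENSMUSG00000024925, chromosome 19, 5601873 to 5603439) had 29.4 and 32.1 CPM in DMSO and 30.2 and 36.1 CPM in YKL, also overlapping, with a log2 fold change of 0.11 ± 0.21 and a 95% interval from -0.36 to 0.58. The sign of the Rnaseh2c value was not settled, since it was -0.028 without YKL replicate 2. The ratio of Rnaseh2b to Rnaseh2c reads per kilobase was 0.838 and 0.521 under DMSO and 0.417 and 0.347 under YKL, lower in both YKL libraries. The ratio of Rnaseh2b to Rnaseh2a was 1.18 and 0.664 under DMSO and 0.76 and 0.573 under YKL, and these overlapped.

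For Rnaseh2c, 423 of its 1455 exonic bases (29.07%) are also exonic in Kat5, a histone acetyltransferase gene on the other strand. Whether the counting used strand is not given in the sources used here, so reads there could have been lost or joined. Kat5 had 47.0 and 36.5 CPM in DMSO and 23.8 and 20.02 CPM in YKL, below DMSO in both libraries, with a log2 fold change of -0.93 ± 0.23 (edgeR, adjusted p = 0.0557). Kat5 was called with RLE scaling (edgeR, adjusted p = 0.0450), with no filter (0.00385) and by DESeq2 (0.00531). Its log2 fold change was -1.13 without DMSO replicate 2 and -0.73 without DMSO replicate 1. The part of this overlap in the Rnaseh2c value was not tested. Rnaseh1, which encodes the monomeric enzyme that cuts RNA in RNA-DNA hybrids, had 10.9 and 13.5 CPM in DMSO and 13.8 and 13.1 CPM in YKL, with overlapping groups.

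Trex1 (ENSMUSG00000049734, chromosome 9, 109057933 to 109059734), the main cytosolic DNA exonuclease gene, had 0 counts in each of the 4 libraries and was not tested. All 1147 of its exonic bases also belong to exons of Atrip on the same strand, the gene of the ATR partner protein, so no base is its own. In GENCODE M21 (GRCm38), the Atrip transcript Atrip-204, annotated for nonsense-mediated decay, runs through the whole of Trex1 and holds its complete coding sequence of 945 bases. The first 30 coding bases, with the start codon in capitals, show what a read from either transcript would look like, since they are the same letters in both.
Trex1-201 and Atrip-204: ATGggctcacagaccctgccccatggtcac

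Of 136 protein-coding genes whose exonic bases all lie in exons of other genes on the same strand, 99 (72.8%) had no count in any library, against 19.9% of 20348 genes that share no exonic base on their strand. With no base of its own, the 0 of Trex1 cannot be read as its level, and no upper limit is given. Atrip itself had 29.0 and 29.95 CPM in DMSO and 35.2 and 36.6 CPM in YKL (log2 fold change 0.28 ± 0.20, edgeR, adjusted p = 0.46), and these values cannot be read as Trex1.

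**Figure D3:**
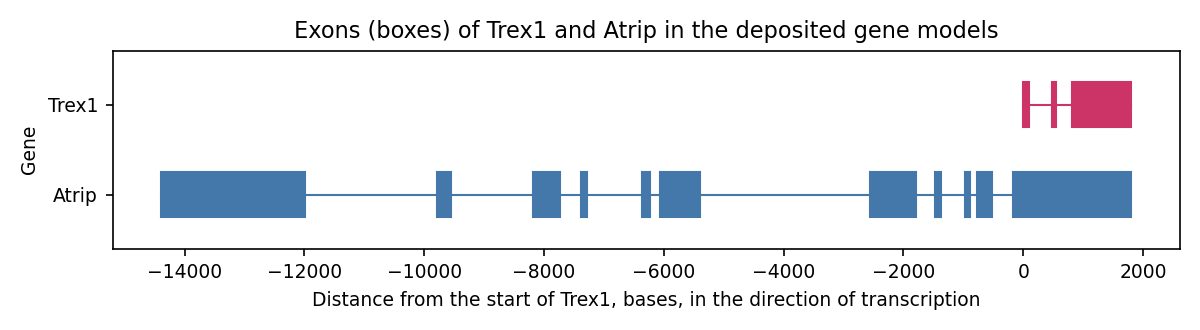
Exons (boxes) of Trex1 and Atrip as the deposited count table gives them, by distance in bases from the start of Trex1 in the direction of transcription. The 3 Trex1 exons lie inside the last Atrip exon, which leaves Trex1 no exonic base of its own.

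Levels between genes were compared as reads per kilobase of exon, on the CPM scale (RPKM). In DMSO the order was Rnaseh2c (21.1 ± 1.31 RPKM, mean ± SD, n = 2), Rnaseh2a (15.9 ± 2.06), Tbk1 (14.7 ± 0.891), Rnaseh2b (14.2 ± 3.86), cGAS (11.3 ± 2.88), Irf3 (9.05 ± 3.58), Samhd1 (8.73 ± 0.803), Mavs (8.55 ± 0.284) and STING (6.89 ± 3.48). Rnaseh2c was separated from the next gene, and every other pair of neighbours in this order overlapped between its libraries. In YKL, Rnaseh2c (22.8 ± 2.84 RPKM) was followed by cGAS (19.5 ± 2.02), and Rnaseh2b came last (8.63 ± 0.0425). There cGAS stood apart from Tbk1, Mavs from Irf3 and Irf3 from Rnaseh2b, and the other neighbours overlapped. Averaged over the libraries, all 9 genes lay above the median of tested genes (5.16 RPKM), from the 63.4th percentile for Irf3 to the 83rd for Rnaseh2c. Dividing the same counts by only the exonic bases that no other gene shares gave Rnaseh2c 29.8 RPKM in DMSO. Only the length changed, so a value could not fall by it, and it does not test the order.

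Fold changes differed little between tests, while the calls differed. DESeq2 on the same counts called 3 of the 9 genes, Samhd1 (adjusted p = 0.0114), cGAS (0.0321) and Rnaseh2b (0.0411), while it called 11.6% of all genes with an adjusted p. The same 3 genes were called by edgeR with no filter on low counts (5.79% of all genes called). With edgeR none of the 9 was called under RLE scaling (4.19% of all genes), total count scaling (1.01%), upper quartile scaling (1.98%), the filter of 5 CPM in 2 libraries (4.82%), no robust prior (1.41%) or protein-coding genes alone (3.62%). Without DMSO replicate 1 cGAS was called (7.61% of all genes), without DMSO replicate 2 Samhd1, Rnaseh2b and STING (14%), and without YKL replicate 1 (0.606%) or YKL replicate 2 (0.402%) none. In these fits a single library stands for a group and is assumed to vary like the other group, so such calls carry little weight. In the authors' deposited table, 4 of the 9 genes had an adjusted p under 0.05, 3 higher (13.9% of its genes) and 1 lower (13.9%). Over its 15936 genes, 27.8% were under it in either direction. The authors' deposited table gives these 4 as cGAS (log2 fold change 0.75, adjusted p = 1.23e-06), Samhd1 (0.71, 3.40e-07), STING (0.63, 0.0382) and Rnaseh2b (-0.67, 0.00322). The authors' deposited table does not list Trex1.

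**Figure D4:**
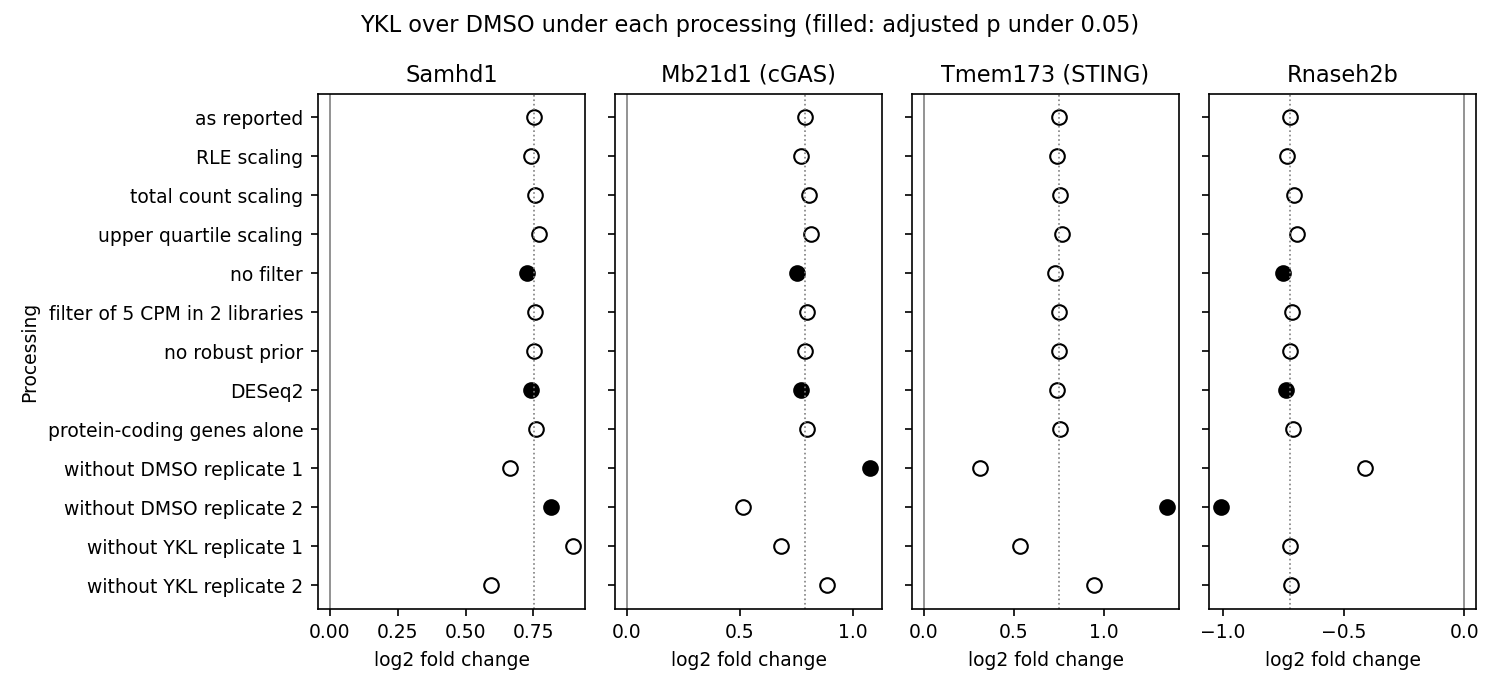
log2 fold change of YKL over DMSO for Samhd1, Mb21d1, Tmem173 and Rnaseh2b as reported and under 12 other ways of processing, with filled points at an adjusted p under 0.05 and a dotted line at the reported value. Changes of scaling, filter or tool left the values near the reported one, and leaving out a DMSO library moved Mb21d1, Tmem173 and Rnaseh2b. Leaving out YKL replicate 1 or 2 moved Samhd1 (to 0.90 or 0.60) and Tmem173 (to 0.53 or 0.94).

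Around these genes, the other nucleic acid sensors, adaptors and kinases showed 1 call among 40 tested of 45 listed, in the direction of higher levels, beside 2.1% of all tested genes called higher and 1.44% called lower. The gene was Nlrx1, a mitochondrial NOD-like protein known to dampen MAVS and STING signalling, which rose from 4.39 and 3.20 CPM in DMSO to 12.7 and 11.1 CPM in YKL (log2 fold change 1.64 ± 0.36, edgeR, adjusted p = 0.0396). Both YKL libraries were well above both DMSO libraries. Its call ended with total count scaling (edgeR, adjusted p = 0.065), upper quartile scaling (0.0559) and no robust prior (0.0604), and when YKL replicate 1 (0.255) or YKL replicate 2 (0.194) was left out. Ikbke, the relative of Tbk1 that can replace it, stayed low at 0.777 and 0.793 CPM in DMSO and 1.44 and 0.59 CPM in YKL. Banf1, named after its value was seen, encodes a chromatin protein that competes with cGAS for DNA, and had 225 and 177 CPM in DMSO and 108 and 133 CPM in YKL (log2 fold change -0.74 ± 0.20, edgeR, adjusted p = 0.0779). The list, which also holds genes of other kinds such as Enpp1, Surf4, Stim1, Tmed2 and Tram1, had a median log2 fold change of 0.08. At an unadjusted p under 0.05 (edgeR), 7 of its tested genes were higher and 5 lower, beside 21.2% of all tested genes in either direction.

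Of 42 tested genes among 47 other nucleases and enzymes of the dNTP pool, 1 was called, lower in YKL. Among all tested genes, 1.44% were called lower and 2.1% higher. Xrn1, the cytoplasmic 5′ to 3′ exoribonuclease of mRNA decay, fell from 119 and 97.1 CPM in DMSO to 51.0 and 49.6 CPM in YKL (log2 fold change -1.11 ± 0.19, edgeR, adjusted p = 0.0217). The YKL libraries were nearly equal and far below both DMSO libraries, and the call was lost without YKL replicate 1 (edgeR, adjusted p = 0.11) or YKL replicate 2 (0.127) at nearly the same fold change. Adar, the editor of double-stranded RNA that shares its human disease with Trex1 and the RNase H2 genes, had 81.1 and 65.1 CPM in DMSO and 58.7 and 63.7 CPM in YKL (log2 fold change -0.26 ± 0.19). The median over this list, which also holds genes of other kinds such as Atrip, Nbn, Skiv2l and Top1, was 0.13. At an unadjusted p under 0.05 (edgeR), 8 of its tested genes were higher and 3 lower, beside 21.2% of all tested genes in either direction.

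Downstream of IRF3 and interferon, 32 of 40 listed genes were tested and 1 was called, higher in YKL, beside 2.1% of all tested genes. Cxcl10, a T cell chemokine, rose from 3.32 and 1.65 CPM in DMSO to 13.3 and 7.60 CPM in YKL (log2 fold change 2.07 ± 0.47, edgeR, adjusted p = 0.0474), a call lost under 7 of the 13 other settings. Some exonic bases of these called genes are shared with other genes, with 2119 of 2252 unshared in Cxcl10, 5067 of 5750 in Nlrx1 and 17797 of 18585 in Xrn1. The interferon gene Ifnb1 had a single count, in YKL replicate 1, and Ccl5 had 1 and 0 counts under DMSO and 3 and 1 under YKL, so no difference was detectable at this depth. Rsad2, an interferon-stimulated gene named after its value was seen, had 62.4 and 56.8 CPM in DMSO and 92.2 and 116 CPM in YKL. It was higher in both YKL libraries but not called (edgeR, adjusted p = 0.0543). Rsad2 was taken from the higher end of the list and no gene lower in YKL is named here, so it does not describe the list. Of the 32 tested genes 19 had values above 0 and 13 below, with a median log2 fold change of 0.12 and a range from -1.05 to 2.07. At an unadjusted p under 0.05 (edgeR), 5 were higher and 2 lower, beside 21.2% of all tested genes in either direction.

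**Figure D5:**
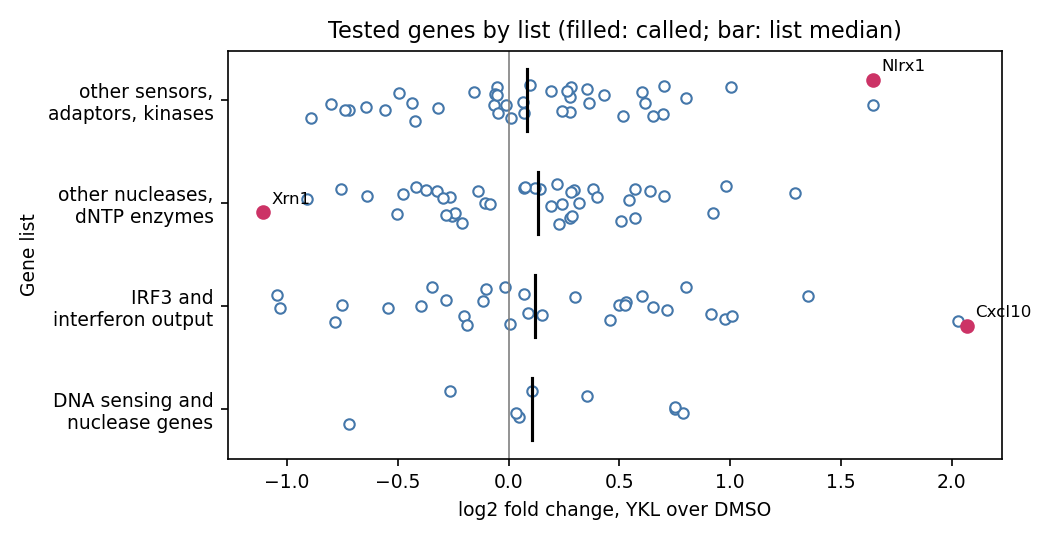
log2 fold change of YKL over DMSO for every tested gene of the 4 gene lists (points, spread vertically for clarity), with called genes filled and named and a bar at each list's median. Each of the 3 surrounding lists holds a single called gene, where 3.54% of all tested genes were called, and their medians lie between 0.08 and 0.13.

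Out of 11243 other protein-coding genes at a mean of 5 CPM or more, those whose log2 CPM followed Samhd1 most closely over the 4 libraries were Polr3k (Euclidean distance 0.0283 after centring), a subunit gene of RNA polymerase III, and Med18 (0.0555), a Mediator subunit gene. Polr3k had 75.7 and 85.7 CPM in DMSO and 124 and 153 CPM in YKL. Closest to Rnaseh2b were Sema6d (0.0582), a semaphorin gene, and Neurl3 (0.0711), which encodes a ubiquitin ligase. Sema6d had 27.8 and 18.2 CPM in DMSO and 13.5 and 13.4 CPM in YKL. With 4 libraries many genes come close to any pattern, so this is a description.

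The stretches upstream of Samhd1 and cGAS are shown because these were the genes with the smallest p among those higher in YKL. RefSeq windows (GRCm38.p6) reach from 250 bases before to 50 after each start, and 8 of the 10 genes had one. The bases below exclude any annotated exon, run 5′ to 3′ on the gene's strand, and have capitals at a GC box. They cover chr2:157135266-157135346 (minus strand, 81 bases, ending 170 bases before the RefSeq start) for Samhd1 and chr9:78443238-78443487 (minus strand, 250 bases, ending at the base before the start) for cGAS.
Samhd1: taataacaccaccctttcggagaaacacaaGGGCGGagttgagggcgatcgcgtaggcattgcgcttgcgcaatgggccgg
Cgas: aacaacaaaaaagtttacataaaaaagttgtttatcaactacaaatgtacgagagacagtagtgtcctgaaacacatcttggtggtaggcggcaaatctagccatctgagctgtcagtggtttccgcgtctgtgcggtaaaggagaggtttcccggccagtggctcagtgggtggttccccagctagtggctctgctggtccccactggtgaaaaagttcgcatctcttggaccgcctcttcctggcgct

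Over both strands of the full windows of 300 bases, the GC box GGGCGG, which Sp and KLF factors bind, was found in 6 of the 8 genes, and in 35.7% of 32851 mouse windows. Samhd1, Irf3, Mavs, Rnaseh2a, Tbk1 and Trex1 had it, and cGAS and Rnaseh2c did not. A gene counts here if any of its windows matches, while the percentages are over the windows of 27025 genes. Not every window of Trex1 held the GC box. The CCAAT box, spelled CCAAT, was found in Mavs and Rnaseh2a, and in 37.4% of all windows. None of the 8 genes had the interferon response core (GAAA, any 2 bases, GAAA) or the E2F site TTTCGCGC, which 3.44% and 0.323% of all windows held. The windows had between 5 and 37 CpG dinucleotides, with the most in Tbk1 and the fewest in one of the windows of Trex1, beside a median of 7 over all windows. A match is a description of letters.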

How the data were processed

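Bulk RNA of 4 libraries was sequenced. STAR 2.5.2b aligned the reads to mm10 and featureCounts assigned them to genes, per the submitters' processing notes. The authors deposited these as raw counts, beside exon positions and lengths. Their second deposited table, from DESeq2, lists for each of 15936 genes a mean signal, log2 fold change and error, score, and p-values before and after adjustment, per the file headers. The strand setting and annotation release of the counting are not given in the sources used here. Identifiers matched GENCODE M21 (GRCm38) at 99.72%.

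Counts were tested with edgeR 4.0.16 in R 4.3.3: filterByExpr (minimum count 10, minimum total 15), TMM scaling and quasi-likelihood F tests, robust prior, 2 residual degrees of freedom, Benjamini-Hochberg adjusted over 16749 genes. The standard error is the absolute log2 fold change over the square root of F. RPKM divides scaled CPM by the exon length in the table. DESeq2 1.42.0 and 12 other settings were alternatives. Libraries held 29817387 to 34189709 counts, with a common biological variation of 25%.

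The rule for naming genes took all 10 genes, and up to 2 called genes per direction in each list. It added Cxcl10, Ccl5, Ifnb1, Rnaseh1, Adar, Rrm2 and Ikbke, genes sharing exons with the 10, and the 2 genes nearest in pattern to the strongest higher and lower gene. The genes, lists and tests were chosen with earlier results of these data known. Of the genes sharing exons, Gm8093, THSD8, Prdx2 and Dleu7 each covered at most 9.661% of the exonic bases of any of the 10 genes. THSD8 and Prdx2 both overlap Rnaseh2a, in which 2993 of 3509 exonic bases are unshared.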

Additional observations from a re-analysis of the deposited data

How the results depend on the processing

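The count of called genes among the 9 tested was 0 as reported and with RLE, total count or upper quartile scaling, the filter of 5 CPM in 2 libraries, no robust prior and protein-coding genes alone, and 3 with no filter, with the replicate block and by DESeq2. With the block these were Samhd1 (edgeR, adjusted p = 0.0245), cGAS (0.0176) and Rnaseh2b (0.0441), and Kat5 was called too (0.0144). Leaving out single libraries gave 0 to 3. All genes called, 593 as reported, were 169 with total count scaling, 331 with upper quartile scaling, 236 with no robust prior, 1740 with no filter, 1387 with the replicate block and 1599 by DESeq2, and 71 to 2453 with single libraries left out. Other sensors, adaptors and kinases had 0 calls with total count scaling, upper quartile scaling or no robust prior, 6 with no filter and by DESeq2, 5 with the replicate block, and 0 to 10 with single libraries left out. Other nucleases and dNTP enzymes had 3 with no filter, 4 with the replicate block, 5 by DESeq2, and 0 to 3 with single libraries left out. IRF3 and interferon output genes had 0 with total count scaling, upper quartile scaling, no robust prior or protein-coding genes alone, 3 with no filter, 2 with the replicate block and by DESeq2, and 0 to 7 with single libraries left out.

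Among single values, Irf3 reversed (range -0.32 to 0.47), as did Tbk1 (-0.050 to 0.11), Rnaseh2c (-0.028 to 0.23) and Ikbke (-0.41 to 0.86) with single libraries left out. Bcl2l12 (-0.0034 as reported) was 0.0089 with upper quartile scaling, 0.091 with the replicate block, 0.00051 among protein-coding genes alone, and -0.45 to 0.61 with single libraries left out. Where the cause is not plain from the libraries used, the cause was not tested. The labels do not say that replicate numbers mark a shared culture, and the correlation of same-numbered deviations was 0.152. With 1 library in a group, that library is assumed to vary like the other group.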
